A study of Homo sapiens with 12 samples.

Results

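The WNT ligand and receptor genes comprised 31 members: 19 WNT ligands, 10 Frizzled receptors (FZD1 to FZD10) and the coreceptors LRP5 and LRP6. Their accessibility was read from the bins of 100 bp, deposited in a table for each cell line, that lay within 20 kb of any annotated transcription start site (TSS) of a member. The human line DU-145 derives from castration-resistant prostate cancer (CRPC), and BT-549 from triple-negative breast cancer (TNBC). ATAC-seq measures open chromatin through the insertion of adapters by the Tn5 transposase. Each of the 4 groups had 3 libraries, 12 in all. All cells carried a tetracycline-inducible hairpin against MUC1 (tet-MUC1shRNA), and were given 0.1% DMSO as vehicle or doxycycline (DOX), for 7 days by the study's methods. One field of the labels calls the vehicle cells untreated. DOX both induces the hairpin and is itself a drug, so the effects of MUC1 silencing and of DOX cannot be told apart here. A control hairpin was not analysed here. BT-549 medium also held insulin.

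WNT ligands are secreted, lipid-modified proteins that bind the Frizzled receptors. In the canonical branch, Frizzled and LRP5 or LRP6 together stabilize β-catenin, which acts with TCF/LEF factors on target genes. In the noncanonical branches, ligands such as WNT5A signal through Frizzled with ROR or RYK receptors to control polarity and movement. Open promoters and distal elements of these genes mark where transcription factors may reach the DNA, but accessibility is not a measure of transcription.

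In DU-145, 29 of the 31 members had at least 1 bin, 1121 of 709366 bins in all, and FZD10 and WNT2 had none. In BT-549, 29 members had 876 of 472994 bins, and FZD10 and WNT9B had none. Of the 321392 bins that both tables share, 643 lay near 28 members. Values are given as CPM, which here means summed bin coverage per 1000000 of the coverage of the library over its table, and a gene window is the sum of its bins. The library sums ranged from 12370094 to 25232000 in DU-145. Those of BT-549 ranged from 9142900 to 13606129 with vehicle, but only from 2502510 to 3267024 with DOX, so that the BT-549 DOX values are the least precise. The bins at the MUC1 promoter fell in DU-145 (log2 fold change -0.39, edgeR adjusted p = 0.00035), and in BT-549 were at -0.28 (edgeR adjusted p = 0.0525). The MUC1 window passed the test in neither line (-0.13 and -0.04), and since the hairpin acts on the transcript, none of these values checks the silencing. Of the markers of the lines, EPCAM, KRT8 and KRT18 (epithelial) had bins in DU-145 and none in BT-549, and CDH1 had 64.6 to 81.2 CPM in DU-145 vehicle cells. In BT-549 vehicle cells CDH1 had 4.96 to 7.19 CPM, but the tables were scaled apart, and over shared bins CDH1 differed by 0.12 (edgeR adjusted p = 0.609). FN1 (mesenchymal) was higher in BT-549 by 1.70 on the log2 scale and ZEB1 by 0.44 over shared bins, but the window of VIM, also mesenchymal, differed by 0.06 (edgeR adjusted p = 0.448) and its promoter bins were lower in BT-549 (-0.49, edgeR adjusted p = 9e-08).

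The distal elements that carried the largest part of several results are shown as 300 bases around their highest bin, from GRCh38 on the plus strand. Capitals mark TGACTCA or TGAGTCA, the letters bound by the AP-1 (JUN/FOS) factors, which are each other's reverse complement. The WNT9A element (chr1:227934801-227935100), in the intron of that gene, and the WNT7B element (chr22:45969101-45969400), also intronic, gained accessibility in DU-145. The WNT16 element (chr7:121314001-121314300), intergenic upstream of the gene, lost it in DU-145. The WNT5B element (chr12:1605401-1605700), intronic, lost it in BT-549.
WNT9A element: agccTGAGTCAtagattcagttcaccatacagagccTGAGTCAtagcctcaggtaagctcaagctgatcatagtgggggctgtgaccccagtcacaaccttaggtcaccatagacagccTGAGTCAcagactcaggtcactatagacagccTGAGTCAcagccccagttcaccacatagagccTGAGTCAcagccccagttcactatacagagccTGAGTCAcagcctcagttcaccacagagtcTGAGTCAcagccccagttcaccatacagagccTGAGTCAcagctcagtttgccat
WNT7B element: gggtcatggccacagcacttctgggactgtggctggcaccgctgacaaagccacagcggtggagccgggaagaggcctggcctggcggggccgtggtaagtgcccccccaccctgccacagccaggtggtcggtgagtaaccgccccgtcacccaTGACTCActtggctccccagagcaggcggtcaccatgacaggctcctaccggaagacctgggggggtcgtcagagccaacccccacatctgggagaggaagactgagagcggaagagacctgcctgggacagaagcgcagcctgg
WNT16 element: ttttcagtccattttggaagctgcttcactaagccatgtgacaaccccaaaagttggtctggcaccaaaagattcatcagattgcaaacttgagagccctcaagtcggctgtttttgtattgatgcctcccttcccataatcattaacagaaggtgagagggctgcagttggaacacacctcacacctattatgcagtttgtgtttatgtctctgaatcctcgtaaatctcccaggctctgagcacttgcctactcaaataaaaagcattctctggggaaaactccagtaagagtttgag
WNT5B element: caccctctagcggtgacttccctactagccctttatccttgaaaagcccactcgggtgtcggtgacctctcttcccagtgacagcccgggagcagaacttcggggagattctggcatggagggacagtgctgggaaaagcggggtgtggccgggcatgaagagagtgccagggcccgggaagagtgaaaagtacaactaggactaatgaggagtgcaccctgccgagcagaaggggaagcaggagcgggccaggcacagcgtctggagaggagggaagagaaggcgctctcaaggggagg
The WNT9A element held 8 AP-1 sequences, all TGAGTCA, and 5 of the 7 steps from one to the next were 32 bp. It was the 1 region of 79177 in DU-145, and of 46298 in BT-549, whose 300 bases held at least 8. The whole region held 15. By comparison, 3.83% of the DU-145 regions and 2.39% of the BT-549 regions held at least 2. In their 300 bases, the WNT7B element held 1 AP-1 sequence, and the WNT16 and WNT5B elements held none of these letters. The whole WNT7B region held 2, the WNT5B region 1 and the WNT16 region 0. The TCF/LEF core, searched as CTTTGAT and ATCAAAG, was in none of the 4 printed stretches of 300 bases. A match of letters is not evidence of binding, and the number of copies of the WNT9A repeat in these lines was not measured.

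The WNT9A element was the site of the largest gain near any member that passed the rule for named regions. WNT9A is a secreted ligand with a role in joint formation. In DU-145, the region (chr1:227934401-227935700), whose highest bin lay 12981 bp downstream of the TSS, had 9.26, 5.10 and 4.94 CPM with vehicle and 49.7, 41.3 and 40.8 with DOX. By the quasi-likelihood test of edgeR over all regions, it rose by 2.80 on the log2 scale (SE 0.15, adjusted p = 1.2e-16). In BT-549, the same element (chr1:227934401-227935600) had 25.1, 21.6 and 18.8 with vehicle and 61.0, 58.8 and 63.2 with DOX, a log2 fold change of 1.47 (SE 0.15, edgeR adjusted p = 2.3e-08). In both lines, every DOX library was above every vehicle library. Whether more cells had the element open or each cell had it open for longer cannot be told apart in these pools of cells, here and in all results that follow. The peak calls gave the same order in DU-145, with a MACS2 fold enrichment from 13.7 to 18.7 before and from 77.9 to 83.5 after DOX. In BT-549 they did not, with enrichments from 15.8 to 22.2 for vehicle and from 17.1 to 19.7 for the shallower DOX libraries.

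The WNT16 element moved furthest in the other direction. WNT16 is a ligand known for its part in bone and blood stem cell development. The region (chr7:121313601-121314700), with its highest bin 11216 bp upstream of the nearest WNT16 TSS, had 32.1, 29.2 and 26.2 CPM in DU-145 vehicle and 1.95, 2.30 and 2.93 in DOX libraries (log2 fold change -3.59, SE 0.16, edgeR adjusted p = 1.4e-18). The lowest vehicle library was thus far above the highest DOX library. Peaks over it had a fold enrichment of 39.3 to 56.6 in the 3 vehicle libraries, whereas DOX replicate 1 had no peak and DOX replicates 2 and 3 had 3.95 and 4.70. At the WNT16 promoter the direction was opposite: a region of 3.07, 3.50 and 3.79 CPM in vehicle rose to 5.60, 5.02 and 5.93 with DOX (log2 fold change 0.67, edgeR adjusted p = 0.00657). This region was picked after its values were seen, and the 5 bins within 1 kb of a TSS alone were at 0.50 (edgeR adjusted p = 0.123). In BT-549 the WNT16 window had 4 bins in all, at 2.15 to 3.06 CPM for vehicle and 1.03 to 2.10 for DOX, and did not pass the test (-0.87, edgeR adjusted p = 0.196).

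**Figure D1:**
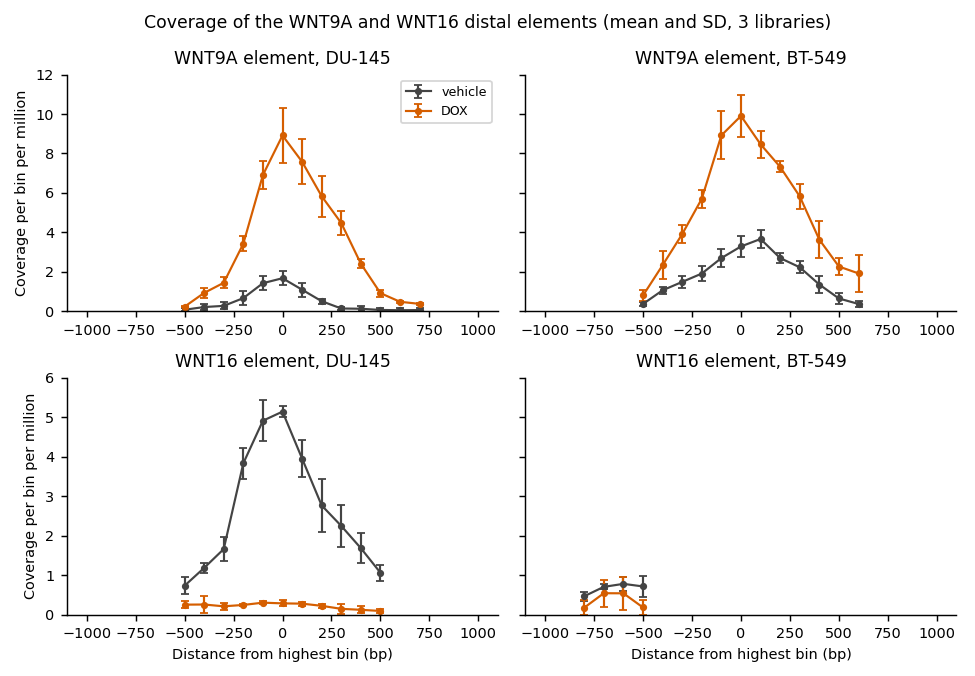
Coverage per bin in CPM (y axis, mean and SD of 3 libraries) against the distance in bp from the bin that was highest in DU-145 (x axis), for vehicle (grey) and DOX (orange) cells. The WNT9A element rose in both lines, while the WNT16 element was lost in DU-145 and had a few low bins in BT-549. Distances with no bin in the table have no point.

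In DU-145, over the 20-kb windows, 7 of 29 members were higher and 10 lower with DOX at an adjusted p below 0.05. Over all 17831 genes, 18.8% were higher and 32.5% lower, so that the members' counts are to be read against a background in which most called genes fell. The median log2 fold change was -0.06 over the members and -0.07 over all genes. Scaled by TMM factors, which set the median of all genes to -0.01, 8 members were higher and 5 lower, and removing the GC trend of each library gave the same numbers. Shares of all genes under these settings are not given here. Those counts show only how the calls depend on the setting. With library sums, 6 of the 18 ligands were higher and 5 lower, and of the 9 Frizzled receptors 1 was higher and 5 lower. Neither coreceptor window passed. The 12 members that were not called, WNT2B, WNT3A, WNT4, WNT5B, WNT8A, WNT8B, WNT11, FZD6, FZD8, FZD9, LRP5 and LRP6, had log2 fold changes between -0.20 and 0.36.

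Among the ligands, the WNT9A window had 99.0, 100.1 and 96.8 CPM in vehicle and 143.5, 142.3 and 141 in DOX libraries (log2 fold change 0.53, SE 0.06, edgeR adjusted p = 1.1e-08). The element held the larger part of the gain. The promoter bins rose too, from 33.7, 37.2 and 36.1 to 40.3, 44.6 and 45.3 (0.28, edgeR adjusted p = 0.0129), while within 5 kb of the TSS the log2 fold change was 0.09 (edgeR adjusted p = 0.281). WNT6, a ligand of epithelial and kidney development, had 15.3, 12.2 and 15.3 in vehicle and 22.5, 22.3 and 27.6 with DOX (0.77, SE 0.13, edgeR adjusted p = 4e-06). No bin lay at the WNT6 promoter, and of the 4 distal regions in the window, the one 9854 bp upstream passed the test, at 9.35, 7.83 and 9.84 with vehicle and 17.9, 18.6 and 21.2 with DOX. It was picked after its values were seen. WNT5A, the main noncanonical ligand, had 26.2, 25.9 and 26.3 before and 33.6, 37.2 and 34.9 after DOX (0.43, SE 0.10, edgeR adjusted p = 0.00044). In all 3 windows, which were named because they were called, the groups did not overlap. The share of all gene windows without overlap is not given here.

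WNT7A and WNT7B, closely related ligands of the nervous system and of epithelia, moved together. WNT7A had 44.2, 41.9 and 41.9 CPM in vehicle and 51.2, 57.5 and 48.03 with DOX (0.30, edgeR adjusted p = 0.0054), and fell short of the threshold without DOX replicate 2 (0.22, edgeR adjusted p = 0.0561). WNT7B had 72.1, 78.4 and 80.3 in vehicle and 95.1, 93.5 and 95.1 with DOX (0.30, edgeR adjusted p = 0.00065). Its intronic element (chr22:45968301-45970000) went from 21.9, 18.3 and 20.8 to 34.9, 34.0 and 34.3 (0.76, SE 0.11, edgeR adjusted p = 2e-07), and is one of the sequences printed above. WNT1, the first-described canonical ligand, rose by 0.32 (edgeR adjusted p = 0.0036), but its window also held the promoter of DDN, which had 16.7, 23.7 and 20.8 in vehicle and 24.4, 26.1 and 27.1 with DOX, and the WNT1 promoter bins were at 0.43 (edgeR adjusted p = 0.121). With TMM factors, WNT3A joined the members that were higher (0.42).

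The ligand windows that fell were led by WNT16, with 35.2, 32.7 and 29.9 CPM in vehicle and 7.55, 7.32 and 8.86 with DOX (-2.04, SE 0.13, edgeR adjusted p = 6.4e-16). WNT3, a canonical ligand of early development, had 47.2, 49.97 and 53.1 in vehicle and 38.5, 41.0 and 43.7 with DOX (-0.28, edgeR adjusted p = 0.0072). Its promoter bins were at -0.04 (edgeR adjusted p = 0.821), while 3 distal regions were lower and 1 higher. For WNT10A (-0.23), WNT10B (-0.23) and WNT9B (-0.59) the calls were lost under several settings, WNT10A without DOX replicate 2 (-0.17), WNT10B without vehicle replicate 2 (-0.21) or DOX replicate 3 (-0.20), and WNT9B without vehicle replicate 1 (-0.40) or DOX replicate 3 (-0.53). In WNT10B, 87.0% of the vehicle coverage lay at promoters of other genes, chiefly a region (chr12:48956001-48958100) at the start of ARF3 and ENSG00000272822 that went from 56.2, 61.7 and 60.3 to 40.5, 47.2 and 40.0 (-0.48, edgeR adjusted p = 2.2e-05). The windows of WNT1 and WNT10B, of WNT6 and WNT10A and of WNT3 and WNT9B overlap, so those pairs share bins.

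Of the Frizzled receptors in DU-145, FZD5, a receptor for canonical ligands such as WNT3A, changed most. Its window had 118, 105.8 and 112 CPM in vehicle and 82.3, 80.0 and 77.3 with DOX (-0.49, SE 0.07, edgeR adjusted p = 3.2e-07), and was a single region at the promoter (chr2:207768401-207770800). The fall was called in all 17 alternatives tried. FZD3, a receptor of axon guidance and planar polarity, had 82.3, 87.1 and 89.0 in vehicle and 65.8, 66.7 and 65.5 with DOX (-0.38, SE 0.07, edgeR adjusted p = 3.7e-05), but 53.9% of its vehicle coverage lay at the promoter of FBXO16, which went from 46.1, 48.2 and 43.8 to 35.2, 30.4 and 31.8. FZD4 (-0.21), FZD7 (-0.24) and FZD1 (-0.19) passed with library sums and did not with TMM factors. Without vehicle replicate 3, FZD7 was at -0.17 (edgeR adjusted p = 0.101), and FZD1 was at -0.12 without vehicle replicate 1, at -0.15 without DOX replicate 2 and at -0.19 without DOX replicate 3, with adjusted p from 0.055 to 0.177 by edgeR.

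FZD2, a receptor for WNT5A, was the 1 Frizzled window that rose, from 23.3, 26.3 and 32.5 to 30.5, 37.4 and 33.3 CPM (0.31, SE 0.11, edgeR adjusted p = 0.0191). The groups overlapped, and the call was lost without vehicle replicate 1 (0.22), vehicle replicate 2 (0.28) or DOX replicate 2 (0.23). The rise lay in a region 13733 bp upstream with 4.01, 5.42 and 6.42 in vehicle and 11.3, 14.2 and 12.7 with DOX, picked after its values were seen, while the promoter bins were at -0.07.

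**Figure D2:**
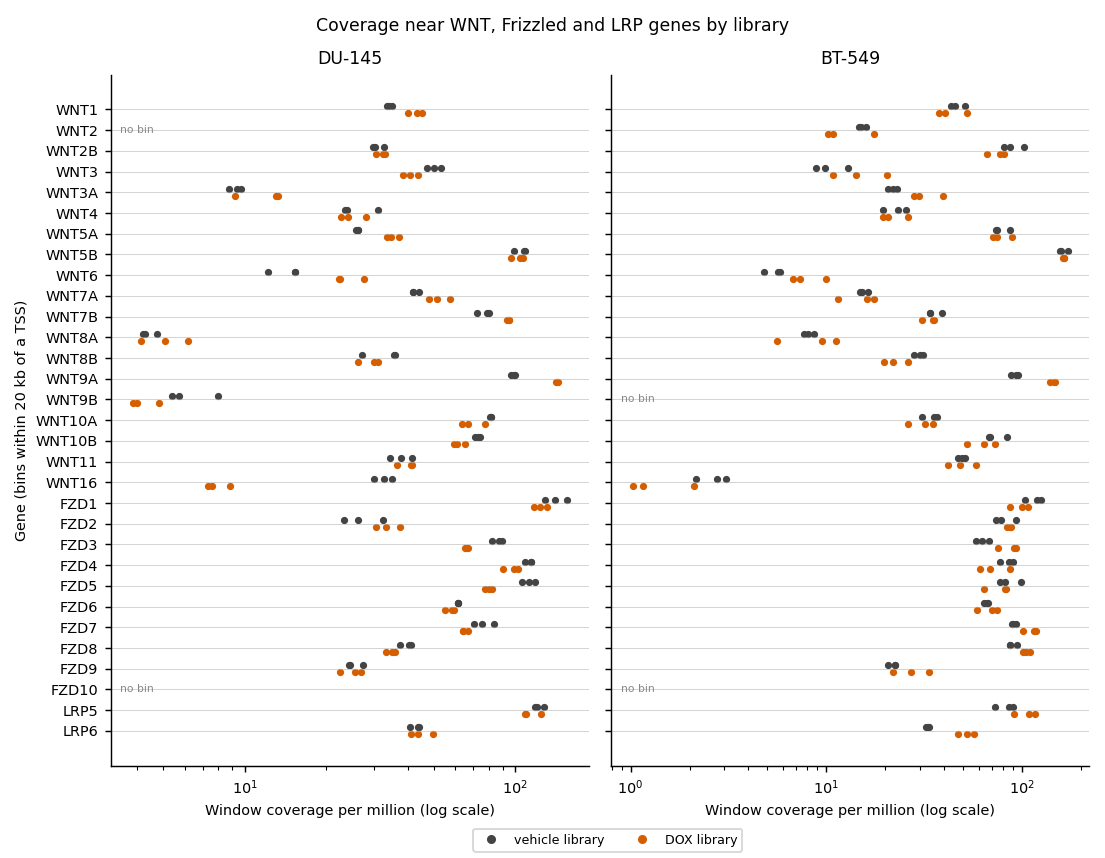
Window coverage in CPM (x axis, log scale) for each member (y axis); each point is 1 library, vehicle in grey and DOX in orange. In DU-145, the WNT16 and FZD5 windows fell and the WNT9A window rose without overlap of the groups, and in BT-549 the WNT9A and LRP6 windows rose.

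Promoter bins, those within 1 kb of a TSS of the gene, were then compared alone, since they leave out other genes and distal elements. Of the 25 members with promoter bins in DU-145, 5 were higher and 7 lower with DOX, against 8.27% higher and 39% lower of 14775 genes. The median over all genes was -0.17 with library sums and 0.00 with TMM factors, and the latter gave 8 higher and 3 lower members, so that changes near -0.2 are those of the median promoter. Shares of all genes with TMM factors are not given here. Of 14 ligands, 4 rose and 1 fell, and 5 of 9 Frizzled receptors fell.

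The WNT7A promoter changed most, from 12.2, 12.2 and 9.84 CPM in vehicle to 18.9, 26.3 and 23.6 with DOX (1.0, SE 0.14, edgeR adjusted p = 5.9e-08), and its region (chr3:13878501-13881100) rose by 0.95. The WNT5A promoter bins went from 14.2, 15.3 and 13.7 to 21.1, 23.5 and 22.4 (0.63, edgeR adjusted p = 5.2e-05), and the region around them (chr3:55486001-55489000) from 17.1, 19.3 and 16.7 to 25.96, 28.9 and 26.6 (0.61). WNT7B (0.38) and WNT9A (0.28) also rose, as did LRP5 (0.39). The LRP6 promoter, of the coreceptor that is phosphorylated on WNT binding, fell from 28.8, 28.0 and 30.9 to 17.4, 23.0 and 20.5 (-0.52, SE 0.12, edgeR adjusted p = 0.00032). FZD6, a receptor that acts in hair and skin polarity, fell from 43.8, 44.3 and 43.5 to 31.8, 31.8 and 31.3 (-0.47, SE 0.10, edgeR adjusted p = 6.7e-05), and FZD5 by 0.49. FZD6, LRP6 and FZD5 were also lower with TMM factors (-0.30, -0.35 and -0.32), whereas FZD1, FZD3, FZD4 and WNT9B were not called.

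Several windows that did not pass as a whole held regions that moved in opposite directions. The FZD6 window changed by -0.09 (edgeR adjusted p = 0.327), although an intronic region 7397 bp downstream of a TSS rose from 0.84, 1.80 and 1.48 CPM to 8.01, 7.34 and 7.87 (log2 fold change 2.44, SE 0.24, edgeR adjusted p = 1.2e-10) while its promoter fell. The LRP6 window changed by 0.07 (edgeR adjusted p = 0.524). Its promoter region (chr12:12266401-12267700) fell from 27.3, 26.5 and 29.9 to 15.7, 21.2 and 18.7 (-0.58), while a region 6007 bp upstream rose from 9.07, 11.4 and 8.13 to 16.4, 20.01 and 15.5 (0.84, edgeR adjusted p = 1.1e-05). In LRP5 (-0.09, edgeR adjusted p = 0.25), 78.3% of the vehicle coverage was at the promoter of PPP6R3, which fell by 0.33, while the main LRP5 promoter region rose by 0.47 and a minor one by 2.44, from 0.49, 0.34 and 0.69 to 2.68, 2.19 and 3.16. These regions, other than the LRP6 promoter, were picked after their values were seen.

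In all, 98 accessible regions of the DU-145 table overlapped the windows, of which 26 were higher and 21 lower with DOX, against 37.1% and 17.4% of all 79177 regions. With TMM factors 21 were higher and 29 lower, which moved the median of all regions from 0.24 to 0.05. Shares of all regions with TMM factors are not given here. Of the 34 member promoters, 7 were higher and 7 lower, against 15.5% and 31.6% of all promoter regions. Of the 59 distal regions, 18 were higher and 11 lower, against 43.6% and 13.1% of all distal regions. Over all distal regions of the table, the median log2 fold change was 0.42, and over those of the members 0.04. AP-1 letters were in the 300 bases of 14 of the 98 regions (14.3%), against 30% of all regions. Among the distal ones, 8 of 18 that were higher, 3 of 11 that were lower and 2 of 30 that were not called held them. Over all distal regions of DU-145, 46.1% of those higher, 26.4% of those lower and 27.9% of those not called did, so that the members that were called lay near the background. TCF/LEF letters were in 1.02% of the members' regions and in 3.49% of all. The median GC content was 58.1% for the members' regions and 47.7% for all.

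**Figure D3:**
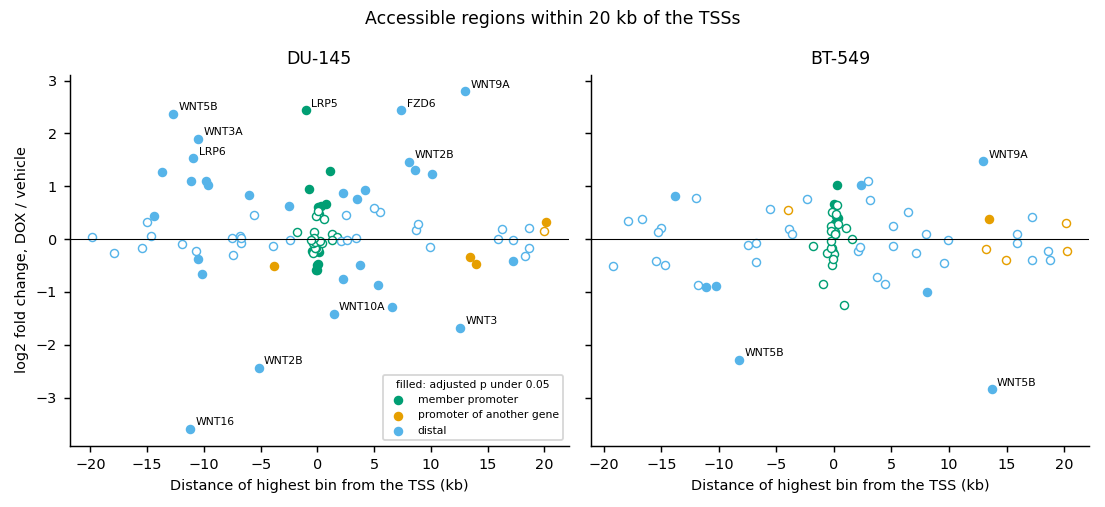
Log2 fold change with DOX (y axis) of each accessible region near a member against the distance of its highest bin from the nearest member TSS in kb (x axis), in DU-145 (98 regions) and BT-549 (78 regions). Colours give the class and filled points an edgeR adjusted p below 0.05; called regions beyond 1.4 in either direction carry the name of the nearest member. The WNT9A element is the highest point in both lines and the WNT16 element the lowest in DU-145.

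Over the windows of BT-549, edgeR called 6 of 29 members higher with DOX and 0 lower, against 18.9% and 11.7% of 16519 genes. At an unadjusted p below 0.05, 10 members differed. TMM factors gave 5 higher and 2 lower (WNT2B and FZD1), and DESeq2 gave 5 higher and 1 lower. With the GC trend removed, 3 were higher (LRP6, FZD3 and WNT9A) and 5 lower (WNT8B, FZD1, FZD5, WNT10B and FZD4). Without vehicle replicate 3, the count of called members was 3. For the unadjusted p and these other settings, the share of all genes is not given here. Those counts show only how the calls depend on the setting. The 23 members that were not called lay between -0.87 (WNT16) and 0.55 (WNT6), and included WNT5A (-0.01), WNT5B (0.00), WNT7A (-0.03) and FZD5 (-0.17).

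The WNT9A window had 95.5, 92.9 and 87.9 CPM in vehicle and 145.4, 138.5 and 148 with DOX (0.64, SE 0.10, edgeR adjusted p = 2.3e-06). The promoter bins were at -0.06 (edgeR adjusted p = 0.789), unlike the element. The LRP6 window consisted of its promoter alone (chr12:12266201-12268000) and went from 33.5, 32.9 and 32.3 to 57.0, 52.1 and 47.1 (0.65, SE 0.15, edgeR adjusted p = 0.00059). FZD3 had 67.9, 62.2 and 58.2 in vehicle and 90.8, 75.1 and 92.5 with DOX (0.46, SE 0.12, edgeR adjusted p = 0.0032), with 16.8% of its vehicle coverage at the promoter of FBXO16. In these 3 windows, also named because they were called, the DOX libraries lay above the vehicle libraries. The share of all gene windows in which they did is not given here.

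The remaining calls were less stable. WNT3A, the ligand most used to activate the canonical branch, had 23.0, 20.7 and 21.9 in vehicle and 39.4, 29.6 and 27.9 with DOX (0.56, edgeR adjusted p = 0.018), and was no longer called without vehicle replicate 2 (0.52), vehicle replicate 3 (0.56) or DOX replicate 1 (0.39). LRP5 rose by 0.35 (edgeR adjusted p = 0.0144), with 69.1% of its vehicle coverage at the promoter of PPP6R3 (63.5, 57.1 and 50.7 in vehicle, 71.2, 64.8 and 87.5 with DOX), and was lost without vehicle replicate 3 (0.27) or DOX replicate 3 (0.27). FZD7, a receptor linked to stem cells, had 88.2, 92.4 and 89.6 in vehicle and 115.4, 117 and 101.5 with DOX (0.30, edgeR adjusted p = 0.0218). It was not called with TMM factors, nor without vehicle replicate 1 (0.29), vehicle replicate 3 (0.30), DOX replicate 1 (0.27) or DOX replicate 2 (0.26).

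At the promoter bins of BT-549, 5 of 24 members were higher and 0 lower, against 18.7% and 6.69% of 14050 genes. They were LRP6 (0.65), FZD7 (0.47), FZD3 (0.44), WNT5B (0.65) and WNT3A (1.02). The WNT3A value rests on 4 bins of low coverage, at 2.71, 3.18 and 2.22 CPM in vehicle and 6.43, 4.84 and 5.08 with DOX. DESeq2 was not run on promoter bins, and at an unadjusted edgeR p below 0.05 there were 8. With TMM factors 3 were higher (LRP6, FZD7 and WNT5B) and FZD1 lower. Shares of all genes with TMM factors or by unadjusted p are not given here. WNT5B, a noncanonical ligand, had promoter bins at 16.2, 18.8 and 22.9 in vehicle and 40.2, 20.02 and 30.1 with DOX, so that the groups overlapped.

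Of 78 accessible regions in the BT-549 windows, 9 were higher and 5 lower with DOX, against 12.2% and 18% of 46298 regions. TMM factors gave 16 higher and 5 lower, the GC correction 4 higher and 9 lower, and without vehicle replicate 3 the number called was 8. Shares of all regions under these settings are not given here. The 5 that were lower were among the 43 distal regions (11.6%), a smaller share than the 22.8% of all distal regions, and 8.78% of all promoter regions were lower. An intronic WNT5B element (chr12:1605201-1606500), printed above, went from 32.1, 30.9 and 29.3 CPM to 14.1, 15.2 and 19.5 (-0.91, SE 0.19, edgeR adjusted p = 0.00063). Near FZD2, a region 13833 bp upstream (chr17:44543001-44544200) rose from 16.1, 19.0 and 12.9 to 24.9, 24.7 and 34.6 (0.81, edgeR adjusted p = 0.0032), and another 10233 bp upstream (chr17:44546701-44548500) fell from 23.9, 30.0 and 21.1 to 15.7, 11.2 and 13.3 (-0.89, edgeR adjusted p = 0.0026). The FZD2 window as a whole was at 0.09 (edgeR adjusted p = 0.611). AP-1 letters were in 11.5% of the members' regions and 17.2% of all, and TCF/LEF letters in 2.56% and 2.67%. Of the distal regions, 1 of 3 higher and 3 of 5 lower held AP-1 letters, against 28.4% and 29.8% of all distal regions called in those directions.

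WNT2B and WNT5B held regions that moved in both directions. At an exon of WNT2B, 8099 bp downstream of a TSS, the DU-145 region rose from 0.81, 0.78 and 0.60 CPM to 1.98, 2.23 and 1.92 (1.47, edgeR adjusted p = 0.00039), while the BT-549 region there fell from 16.1, 17.2 and 16.4 to 9.37, 8.43 and 7.38 (-0.99, edgeR adjusted p = 0.0029). In neither line did the groups overlap, but the levels were scaled within each table, and the difference between the lines was not tested for single regions. In WNT5B, another intronic region of BT-549 fell from 5.78, 8.30 and 5.34 to 0.89, 1.94 and 1.15 (-2.29, edgeR adjusted p = 0.00038), whereas an intergenic region 12740 bp upstream rose in DU-145 from 0.34, 1.14 and 0.53 to 4.52, 3.87 and 3.33 (2.37, edgeR adjusted p = 1e-07). Others went the opposite way: a WNT2B region 5190 bp upstream fell in DU-145 from 3.25, 2.87 and 2.45 to 0.37, 0.62 and 0.52 (-2.44), a pair of WNT5B regions fell there by 0.38 and 0.42, and the WNT5B promoter region rose in BT-549 by 0.39. The WNT2B and WNT5B windows as a whole were at 0.05 and -0.03 in DU-145 and at -0.27 and 0.00 in BT-549, and did not pass the test. These regions were picked after their values were seen.

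**Figure D4:**
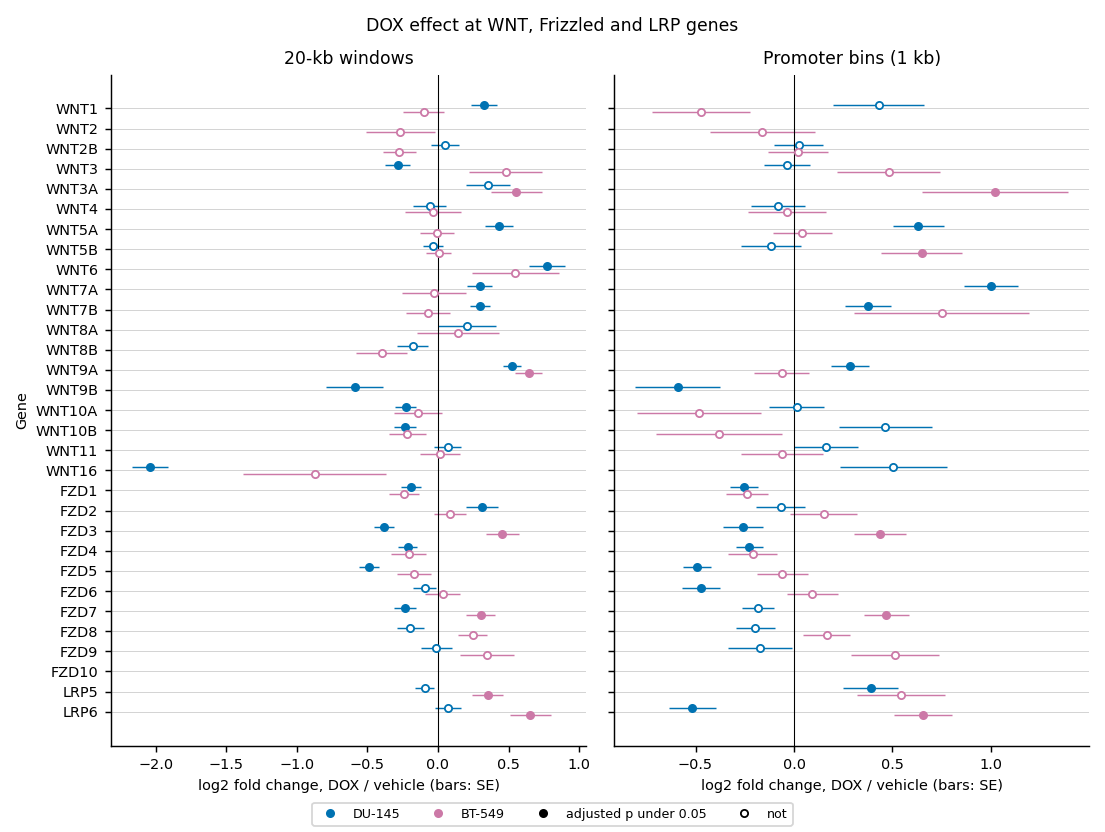
Log2 fold change with DOX (x axis, bars are SE) of each member (y axis) in DU-145 and BT-549, over 20-kb windows and over promoter bins within 1 kb. Filled points have an edgeR adjusted p below 0.05. LRP6 and FZD3 lie on opposite sides of 0 at the promoter in DU-145 and BT-549, and WNT9A is higher in both lines over the window.

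The DOX effects of the lines were compared by the interaction of line and DOX over shared bins. Of 28 members, 5 had a higher effect in BT-549 and 3 a lower one, against 19% and 13.9% of 15909 genes. The difference was largest for LRP6 (1.01 on the log2 scale, SE 0.19, edgeR adjusted p = 7.3e-05), of whose bins 14 are shared, all at its promoter. The LRP6 window of DU-145 has 46 bins, and as a whole did not pass the test there. For FZD6 too, the 16 shared bins all lie at the promoter, and its window was called in neither line. The members with a higher effect in BT-549 were LRP6, FZD3, FZD7, FZD6 and LRP5, and those with a lower effect were WNT5A, WNT2B and WNT1. Both counts lay near the shares of all genes. Over all promoter regions, the median log2 fold change with DOX was -0.11 in DU-145 and 0.07 in BT-549. The part of that general shift in the differences was not tested. In DU-145 vehicle cells, however, promoter bins held only 14.7 of 150.8 CPM of the shared LRP5 window, and 52.6 of 112.9 for FZD3. Mean LRP5 promoter coverage was higher with DOX in both lines (14.7 to 19.3 and 19.8 to 28.1). That of FZD3 was lower in DU-145 (52.6 to 46.4) and higher in BT-549 (63.65 to 83.1). Over its whole shared window, the WNT9A effect did not pass a test of difference (-0.04, SE 0.11, edgeR adjusted p = 0.791). The WNT9A element, which rose by 2.80 in DU-145 and by 1.47 in BT-549, was not compared between the lines by itself, and neither were the promoter bins. Without DU-145 DOX replicate 3, 5 members differed, WNT1 (-0.46), LRP5 (0.33) and FZD6 (0.44) being lost. WNT16 had 1 shared bin and could not be compared with any precision (-1.06, SE 1.47).

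Vehicle cells of the lines were compared over the same shared bins. Of 28 members, 11 were higher in BT-549 and 9 lower, against 37.5% and 39.8% of all genes. The 8 that were not called, WNT4, WNT7B, WNT8B, WNT10B, WNT11, WNT16, FZD7 and LRP6, lay between -0.24 and 0.28. The copy number of these loci was not measured, and it cannot be told apart from accessibility in a comparison of lines. WNT5A had 34.3, 33.9 and 35.1 CPM in DU-145 and 83.2, 80.6 and 98.3 in BT-549 (1.34, SE 0.10, edgeR adjusted p = 3.5e-13). WNT2B, a canonical ligand, had 38.7, 36.6 and 35.8 in DU-145 and 82.8, 98.2 and 73.4 in BT-549 (1.2, edgeR adjusted p = 1.2e-11). FZD8 had 55.1, 54.4 and 50.6 in DU-145 and 95.4, 94.0 and 103.5 in BT-549 (0.87, edgeR adjusted p = 2.8e-10), and FZD2 30.98, 35.2 and 43.4 and 53.4, 64.2 and 51.5 (0.63). The other higher windows were those of WNT8A (0.66), WNT1 (0.45), FZD6 (0.44), WNT5B (0.37), WNT6, WNT3A and FZD9. WNT8A was at -0.023 with the GC trend removed and WNT5B at -0.15 over the bins nearest to the gene. WNT6, WNT3A and FZD9 were each lost when single libraries were left out, at 0.35 to 0.47 for WNT6, 0.35 to 0.43 for WNT3A and 0.26 to 0.34 for FZD9.

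The windows with less accessibility in BT-549 were led by WNT3, with 24.3, 32.8 and 31.8 CPM in DU-145 and 15.7, 12.04 and 10.9 in BT-549 (-1.19, SE 0.16, edgeR adjusted p = 6.5e-08). WNT10A (-0.81), WNT7A (-0.78), FZD5 (-0.66), LRP5 (-0.57), FZD3 (-0.55), FZD4 (-0.55), FZD1 (-0.34) and WNT9A (-0.31) followed. FZD5 had 157, 141 and 150.6 in DU-145 and 89.8, 85.1 and 109 in BT-549 (edgeR adjusted p = 2e-08). FZD4, the receptor for norrin as well as for WNT ligands, had 148, 149.7 and 142 in DU-145 and 102, 90.4 and 107.5 in BT-549.

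At promoter bins the lines differed in another way: of 22 members, 12 were higher in BT-549 and 4 lower, against 34% and 40.4% of 13389 genes. WNT1 (1.72), WNT5B (1.63), WNT5A (1.51) and WNT10B (1.05) had the largest excess in BT-549. The WNT1 promoter, for example, had 3.52, 5.13 and 4.52 CPM in DU-145 and 14.3, 16.3 and 13.3 in BT-549 (SE 0.21, edgeR adjusted p = 1.5e-09). WNT5B rose from 1.88, 3.02 and 2.35 to 6.402, 7.78 and 9.54. Lower in BT-549 were WNT3 (-1.19), FZD5 (-0.90), FZD4 (-0.56) and FZD1 (-0.36). For FZD3 (0.28), LRP5 (0.43) and WNT9A (0.24) the promoter was higher in BT-549 although the window was lower.

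**Figure D5:**
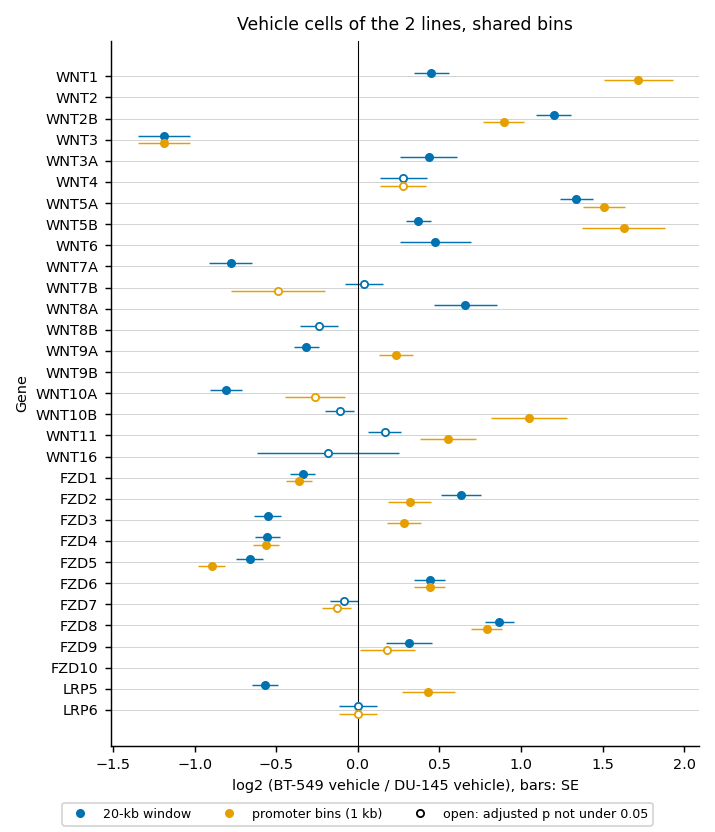
Log2 ratio of BT-549 to DU-145 vehicle cells (x axis, bars are SE) for each member (y axis) over shared bins of the 20-kb window (blue) and of the promoter (orange). Filled points have an edgeR adjusted p below 0.05. The promoters of WNT1, WNT5B and WNT5A lie above 1.5, and FZD3, LRP5 and WNT9A change side between window and promoter.

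Per bin of promoter, FZD1, FZD4 and FZD5 had the highest coverage of the members in both lines. In DU-145 vehicle cells, FZD1 had 6.28 CPM per bin, FZD5 5.71 and FZD4 5.38, and WNT1 was lowest with 0.33. In BT-549 vehicle cells, FZD1 had 5.37, FZD4 4.67 and FZD5 3.97, and WNT7B was lowest with 0.65. A promoter peak was counted where the summit of a deposited peak lay within 1 kb of a TSS. By that count, 23 members had a promoter peak in all 3 libraries of DU-145 vehicle and 23 of DU-145 DOX, 21 of BT-549 vehicle and 17 of BT-549 DOX, the last being the libraries with the lowest sums. A member without such a summit can still have open promoter bins. WNT9A and WNT7B had it in 0 DU-145 vehicle libraries, with promoter bins at a mean of 35.7 and 22.4 CPM there. FZD10 had no peak within 20 kb in any of the 12 libraries. A WNT9B promoter peak was called in all 6 DU-145 libraries and in 0 of 6 BT-549 libraries, whereas WNT2 had one in the 3 BT-549 vehicle libraries, 1 BT-549 DOX library and 1 DU-145 DOX library.

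The other genes of the pathway were followed in a list of 55, of which 52 were tested in DU-145 and 51 in BT-549. Their values are those of 20-kb windows, which can also hold promoters of other genes. The share of coverage at such promoters is not given here for the list, so a change cannot be assigned to the named gene. After DOX, 13 were higher and 19 lower in DU-145, and 10 higher and 5 lower in BT-549. The shares over all genes were 18.8% higher and 32.5% lower in DU-145 and 18.9% and 11.7% in BT-549, and the counts of the list lay near these. In DU-145, 10 of 17 cytoplasmic and nuclear components fell and 3 rose, to be read against the same shares. GSK3B, the kinase that marks β-catenin for destruction, fell from 287, 250.2 and 238 CPM to 194, 170.0 and 178 (-0.52, SE 0.07, edgeR adjusted p = 3.8e-08). LGR5, an R-spondin receptor and stem cell marker, rose from 9.47, 7.75 and 8.56 to 23.7, 19.4 and 20.7 (1.31, SE 0.14, edgeR adjusted p = 6e-10), and DKK2, a secreted antagonist of LRP5 and LRP6, from 2.23, 2.82 and 1.78 to 9.85, 8.17 and 9.37 (1.94, edgeR adjusted p = 7.3e-10). RSPO2, an R-spondin ligand, rose from 2.64, 2.32 and 3.23 to 7.86, 6.71 and 7.49 (1.44, SE 0.21, edgeR adjusted p = 3.6e-07). Of the 6 feedback targets, which are transcribed when the canonical branch is active, 3 fell in DU-145 and 1 rose in BT-549.

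In BT-549, the listed genes with the smallest adjusted p all rose with DOX. BCL9L, a β-catenin coactivator, went from 403, 388 and 429 CPM to 573, 652 and 578 (0.56, SE 0.07, edgeR adjusted p = 2.5e-07). NOTUM, which removes the lipid of WNT ligands, went from 24.1, 20.2 and 22.0 to 33.9, 59.6 and 53.0 (1.14, edgeR adjusted p = 3.7e-06). The window of DVL2 rose by 0.51 and that of DVL1 by 0.53, both genes encoding Dishevelled proteins that act next to Frizzled. Of the 7 noncanonical receptors and polarity genes tested, 3 fell in BT-549 (11.7% of all genes did), and 6 were higher in BT-549 than in DU-145 vehicle cells (37.5% of all genes were). Between the vehicle cells, TCF7 (1.35), SFRP1 (2.63) and PRICKLE2 (2.01) were higher in BT-549 and RNF43 (-1.61) lower. Between the lines, the DOX effect was lower in BT-549 for PRICKLE2 (-1.25), LGR5 (-1.39), PRICKLE1 (-0.79) and DKK3 (-1.22) by edgeR's interaction test.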

How the data were processed

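ATAC-seq was made from 50000 cells per library in 3 biologically independent replicates per group, per the study's methods. The authors used bwa-mem for alignment to GRCh38 and Picard for duplicate removal, called peaks per replicate with MACS2 2.2.7.1 (q below 0.05), kept merged regions found in at least 3 replicates and split them into bins of 100 bp. The deposited values per bin are estimated counts (mean fragment coverage), not normalized by the authors. A fragment adds to every bin it spans, so neighboring bins are not independent and a summed value exceeds the fragments behind it. The deposited peak files give a fold enrichment (ratio) and −log10 p-values and −log10 q-values by the authors, described here without a test.

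Bins within 20 kb of any GENCODE v44 TSS were summed per protein-coding gene, and runs of adjacent bins per accessible region. Sums were rounded and tested with edgeR 4.0.16 (quasi-likelihood, robust) with library sums as sizes, a total of at least 10 and Benjamini-Hochberg adjustment over all features, after the code was tested on simulated data. The lines were fitted apart, and compared over shared bins. P-values set the difference between groups against the spread between these replicates, moderated over all features. Called means an adjusted p below 0.05. The members, lists and tests were chosen with earlier results of these data known. Named were, by smallest adjusted p, up to 8 called members per direction, and up to 6 called regions per direction and line with at least 20 CPM. Pathway genes were named up to 4 per comparison. Promoters are within 1 kb of a TSS. TMM or RLE factors, DESeq2 1.42.0, other filters, a GC offset in 25 classes, windows of 5 kb, bins nearest to the gene, the study's cutoffs, a replicate block and single libraries left out were tried. Not every setting was run for every comparison. Promoter bins with TMM factors were added after seeing the data. No 2 libraries held the same values (at most 1.65% of bins equal).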

Additional observations from a re-analysis of the deposited data

Results flagged for a closer look

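The DOX effect differed between the lines for 8 of 28 members by the interaction of line and DOX (edgeR, adjusted over all genes), in log2 units as the effect in BT-549 minus that in DU-145. Over all 15909 genes, 19% had a higher effect in BT-549 and 13.9% a lower one, so the count is not particular to the members. The difference was 1.0068 for LRP6, 0.6861 for FZD3, 0.4641 for FZD7, 0.4463 for FZD6, 0.3783 for LRP5, -0.5104 for WNT1, -0.558 for WNT5A and -0.5885 for WNT2B. In DU-145 vehicle cells, most coverage of the shared LRP5 and FZD3 windows lay outside their own promoters. The shared windows of LRP6 and FZD6 held promoter bins only. Of the 8 members, LRP6, FZD3, FZD7, WNT5A and WNT2B were called in all 16 alternatives tried. Those were TMM factors, DESeq2, no filter, a replicate block and single libraries left out. The GC correction, the 5-kb window, bins nearest to the gene and promoter bins were not tried for the interaction. The shallower BT-549 DOX libraries had 8.84% to 16.9% of their bins under a value of 1, against at most 6.02% in any other library. Their part in these differences was not tested. Groups of 3 libraries are too small for the test of single outlying libraries.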

How the results depend on the processing

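Under all settings tried, the values of the named regions kept their direction, but not all kept their call. In BT-549 the call was lost in 6 of 12 settings for the FZD7 promoter region. It was lost in 4 for the PPP6R3 promoter region near LRP5 and in 3 for the FZD3 promoter region. In DU-145 it was lost in 5 for the DDN promoter region near WNT1. The differences in DOX effect between the lines kept their direction too. For those differences, the GC correction and the settings by site were not run. Sites chosen within the window decided the direction of some genes. In DU-145, within 5 kb WNT16 was at 0.67, WNT10B at 0.49 and FZD2 at -0.061. With promoter bins they were at 0.50, 0.46 and -0.067 and WNT10A at 0.013, and with promoter bins and TMM factors WNT16 was at 0.67, WNT3 at 0.13, WNT10A at 0.18 and WNT10B at 0.63. With bins nearest to the gene itself, WNT10B was at 0.50. In BT-549, WNT9A was at -0.063 with promoter bins and at -0.16 with TMM factors too. Between vehicle lines, promoter bins gave 0.28 for FZD3, 0.24 for WNT9A and 0.43 for LRP5, bins nearest to the gene 0.28 for FZD3, 0.43 for LRP5 and -0.15 for WNT5B, the 5-kb window 0.31 for LRP5, and the GC correction -0.023 for WNT8A. The settings by site leave out distal bins or the promoters of other genes. For WNT8A and the TMM values the cause was not tested. The promoter count with TMM factors was 11 in DU-145. By the study's cutoffs (fold of at least 2 with an adjusted p below 1e-05 or 0.01), 8 regions were called in DU-145 and 3 in BT-549. The study set these cutoffs on single bins with DESeq2, whereas here they were set on the edgeR values of whole regions. Shares of all regions that pass them are not given here. Leaving out single libraries gave 14 to 17 called members in DU-145, 3 to 6 in BT-549, 17 to 21 between lines and 5 to 8 for the interaction, and 41 to 47 regions in DU-145 and 8 to 16 in BT-549. With the replicate block, 18, 6 and 19 members and 8 interactions were called, and 48 and 12 regions. No share of all features is given for these counts. The same-number correlations of deviations were 0.202, 0.104 and -0.0457 in DU-145 and 0.0111, 0.165 and 0.0528 in BT-549, so the libraries share only a number, and not every library correlated best with its own. The depth of the BT-549 DOX libraries limits single bins and low regions there.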
